A study of Mus musculus with 15 samples.

Results

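The regions described here are 5-hydroxymethylcytosine (5hmC) losses that lie away from H3K27ac. They number 4428 of the 11748 regions in the deposited 5hmC comparison. A region was chosen when it lay on chromosomes 1 to 19, when its mean over the cocaine libraries was below its mean over the saline libraries, and when it shared no base with any of the 49712 listed H3K27ac regions. A region with a cocaine mean under 1.5 normalised counts was called a near-complete loss, and there were 1514 of these (34.2%). The other 2914 were partial losses. The listed autosomal regions numbered 11698, of which 4860 were losses, and 432 of those overlapped an H3K27ac region. A further 14 losses lay on the X chromosome and were left out by the choice. Outside H3K27ac, losses were 41.6% of the listed regions and gains numbered 6220.

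The series profiled the nucleus accumbens, a part of the ventral striatum, of C57BL/6 mice. The cocaine group received 7 daily intraperitoneal injections at 20 mg/kg. The other group is labelled saline. The treatment protocol text repeats the cocaine injections for the saline samples too, so the groups were taken from the treatment field and sample names, and the saline schedule cannot be told. Captured 5hmC DNA was sequenced in 3 cocaine and 3 saline libraries, and H3K27ac chromatin immunoprecipitation in another 3 and 3, with 1 input library for each treatment. The labels give no age, leave it unsaid if each library was made from its own animal or from a pool, and put 1 of the 15 libraries in no usable group. Spread between libraries may therefore be technical. The tissue is a mixture of neurons and glia, and a change in the share of a cell type and a change within cells cannot be told apart in these values. The labelled tissue could not be checked against marker genes, because no expression values were used here.

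Tet enzymes oxidise 5-methylcytosine to 5hmC, which can be an intermediate on the way to unmodified cytosine or a lasting mark of its own. It is abundant in neurons, where it is found in gene bodies and at the edges of regulatory elements. H3K27ac is the acetylation of lysine 27 on histone H3 and marks active enhancers and promoters. The H3K27ac table holds regions kept by a caller of differences, with a deposited window p of at most 9.99e-05 in each, although most of them differ little between the treatments (13% pass limma, as given further on). A position outside the table may still carry the mark. Positions below are on the mouse mm9 build. The genes and the DNA sequence at these positions were not analysed here.

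Captured 5hmC at these regions averaged a median of 8.82 normalised counts in saline (range 5.15 to 33.8) and 2.07 in cocaine (range 0 to 17.7). The cocaine mean was at the median 23.2% of the saline mean. A normalised count is a number of reads divided by a constant for its library, so 1 read was worth between 0.896 and 1.23. The listed regions held 68413 to 92694 reads in a library, with a median of 5 to 7 reads per region. The direction and size of these differences are what the authors' caller and the choice above selected on, so they are given as a description with no test. Values of the groups did not overlap in 4426 of the 4428 regions, beside 99.9% of all listed 5hmC regions. That share describes how the table was made.

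The caller's own adjusted p-values were weak for nearly all of these regions. In the authors' deposited table, 3 of the 4428 had an adjusted p below 0.1, beside 0.0596% of all listed regions, and the median was 0.140. All 3 were partial losses. At chr5:20435401-20435840 the cocaine libraries read 4.80, 4.94 and 1.80 and the saline libraries 16.14, 18.53 and 21.71, with an adjusted p of 0.0163 in the authors' deposited table. Every saline value there was above every cocaine value by a wide margin. At chr5:147090821-147091160 the cocaine values were 2.88, 1.23 and 2.70 and the saline values 17.03, 13.38 and 12.83, with 0.0473 in the authors' deposited table. At chr17:86933641-86934080 the cocaine values were 4.80, 6.17 and 2.70 and the saline values 17.03, 18.53 and 18.75, with 0.0922 in the authors' deposited table. The saline libraries stood close together at the last of these, with an SD of 0.936.

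**Figure D1:**
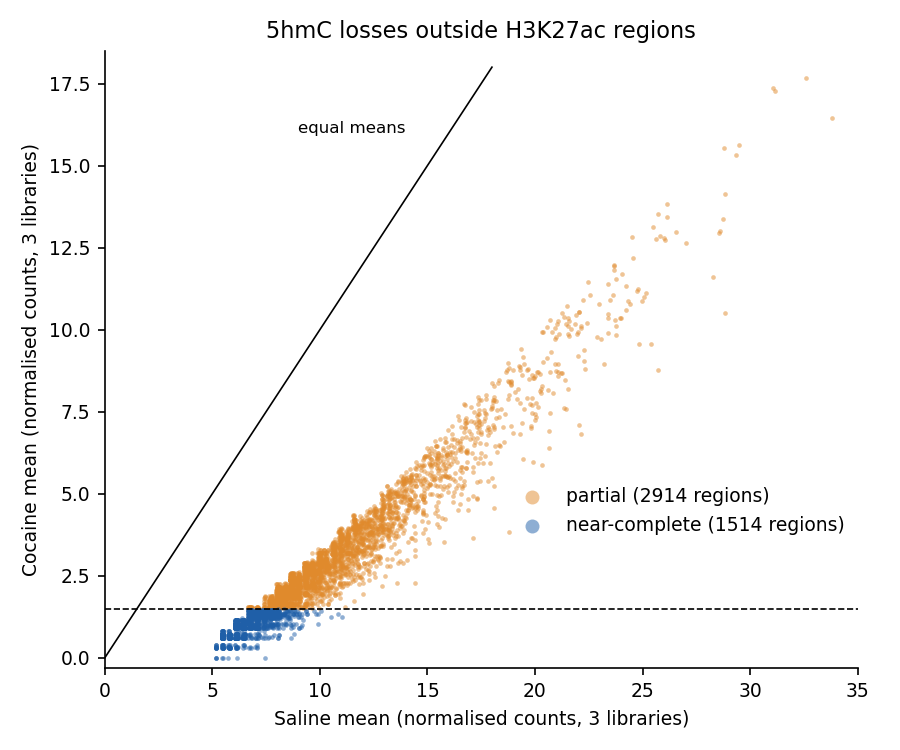
Mean normalised count of each 5hmC loss outside H3K27ac regions in saline (horizontal axis) and in cocaine (vertical axis), 3 libraries each. The dashed line is the cocaine mean of 1.5 that separates the 1514 near-complete losses (blue) from the 2914 partial ones (orange), and the solid line marks equal means; the points form 1 continuous band, with no gap at the dashed line.

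Near-complete losses were regions of modest saline signal that went to a few reads or none after cocaine. Their saline mean had a median of 6.74 (range 5.15 to 11.02) and their cocaine mean a median of 1.03, or 15.64% of saline (range 0 to 21.9%). Summed over the 3 libraries this is a median of 3 reads in cocaine against 21 in saline. Of the 1514 regions, 8 held no read in any cocaine library, 73 held 1 read in all, 301 held 2, 547 held 3, 583 held 4 and 2 held 5. A total of 353 had a read in every cocaine library, 892 were at 0 in 1 library, and 261 were at 0 in 2. Cocaine library 2, in the order of the deposited table, was at 0 most often, at 634 regions (41.9%), followed by library 1 at 439 (29.0%) and library 3 at 365 (24.1%). The same order held for the worth of 1 read, which was 1.23, 0.961 and 0.899 in libraries 2, 1 and 3. No loss of either class was at 0 in any saline library, which the choice of regions favours.

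The 8 regions without a cocaine read had saline means from 5.15, the lowest of all losses, to 7.46. The 3 reads that a count of 0 allows over the cocaine group correspond to a mean of 1.03 normalised counts, and the folds here are set against that floor. At chr10:63759901-63760100 the saline values were 5.38, 5.15 and 11.84, with a mean 7.23-fold the floor. A single saline library carried over 50% of that signal. At chr6:52635181-52635380 the saline values were 5.38, 6.18 and 6.91, with a mean 5.97-fold the floor. At chr15:84656881-84657080 they were 7.17, 5.15 and 4.93, with a mean 5.58-fold the floor. The next in order, chr5:103337481-103337700 and chr15:87733221-87733420, had saline means 5.33-fold and 5.29-fold the floor. The remaining 3, on chromosomes 4, 7 and 13, each had a saline mean 5.00-fold the floor. The floor covers counting error in cocaine alone. Saline means were taken as exact, and the regions were picked for holding no cocaine read. These folds are therefore no lower bounds on the difference.

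The near-complete losses with the most saline signal showed the contrast over more reads. The highest was chr1:165116621-165116960, where the cocaine libraries read 1.92, 0 and 1.80 and the saline libraries 10.76, 14.41 and 7.90. Its 34 saline reads stood against 4 cocaine reads. At chr7:80828201-80828440 the cocaine values were 0.96, 1.23 and 1.80 and the saline values 13.45, 8.24 and 10.86. All 3 cocaine libraries held 1 or 2 reads there, and no saline library held fewer than 8. At chr2:33045241-33045460 the cocaine values were 1.92, 0 and 1.80 and the saline values 7.17, 16.47 and 7.90. This region leaned on saline library 2, and the other 2 saline libraries were close to the typical near-complete loss. At chr14:30465301-30465660 the cocaine values were 0.96, 2.47 and 0.90 and the saline values 8.96, 11.32 and 9.87, an even spread over saline libraries. The 10 highest had saline means between 9.39 and 11.02 and cocaine means between 1.03 and 1.44.

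Partial losses began from higher saline levels and kept more of them. Their saline mean had a median of 10.6 (range 6.68 to 33.8), their cocaine mean a median of 2.87 (range 1.52 to 17.7), and they kept 27.9% of saline (range 13.8% to 55.8%). Summed reads had a median of 8 in cocaine and 33 in saline. The largest difference in means was at chr4:125775341-125775720, with 13.45, 3.70 and 14.38 in cocaine and 26.89, 32.94 and 26.65 in saline. Cocaine library 2 was far below the other 2 there. At chr5:110531981-110532220, which had the highest saline mean of all, the cocaine values were 21.14, 11.11 and 17.07 and the saline values 27.79, 39.12 and 34.54. Cocaine kept 48.6% of the saline level, and the groups still did not overlap. At chr11:113900781-113901040 the cocaine values were 10.57, 4.94 and 10.78 and the saline values 28.69, 25.74 and 22.70. At chr15:77882941-77883280 the cocaine values were 9.61, 7.41 and 11.68 and the saline values 27.79, 23.68 and 24.67, with similar SDs in both groups (2.14 and 2.15).

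The groups overlapped at the 2 remaining regions, both partial and singled out here for that reason after their values were seen. At chr7:35988521-35988740 the cocaine values were 10.57, 9.88 and 14.38 and the saline values 13.45, 31.91 and 39.48. Saline library 1 lay inside the cocaine range, so this large difference rested on the other 2 saline libraries. At chr2:71506261-71506460 the cocaine values were 0.96, 4.94 and 0.90 and the saline values 11.65, 10.29 and 4.93. Here saline library 3 and cocaine library 2 met at the same level. The margin between the lowest saline and the highest cocaine value had a median of 3.95 normalised counts over all losses, and was under 1, about 1 read, at 15 regions (0.339%).

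**Figure D2:**
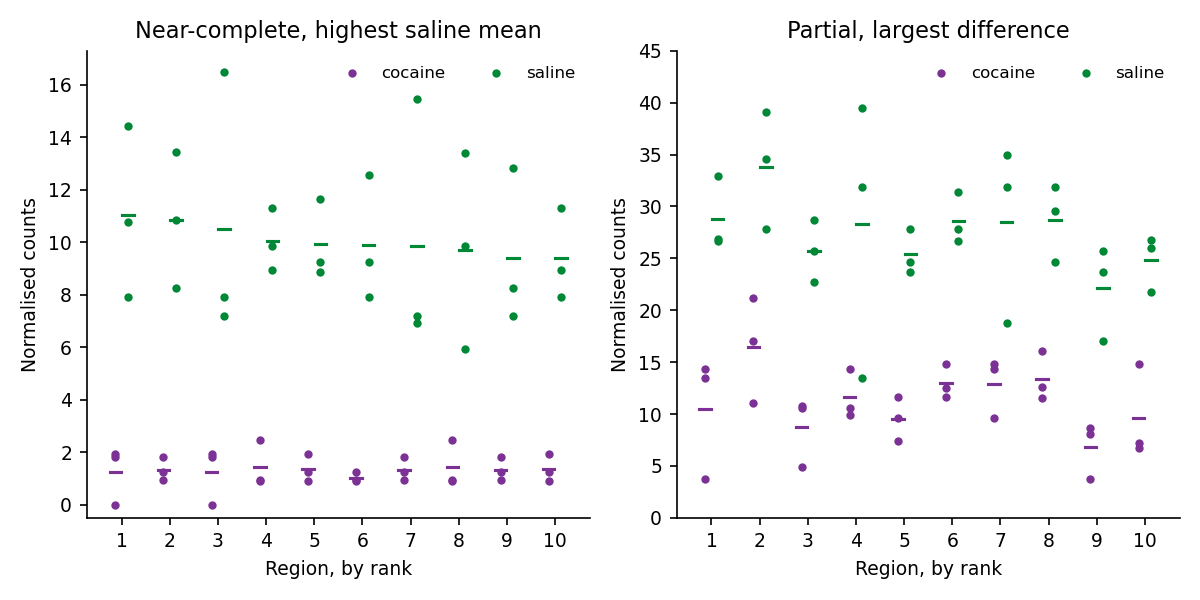
Normalised counts of the 10 near-complete losses with the highest saline mean (left) and of the 10 partial losses with the largest difference between means (right); points are single libraries (3 cocaine, 3 saline), horizontal ticks are group means. The groups are apart in all regions but the 4th of the right panel, where the lowest saline library (13.45) is under the highest cocaine library (14.38).

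No step in the data separated the near-complete class from the partial one. Just under the threshold, chr6:50758761-50758960 read 0, 0 and 4.49 in cocaine and 9.86, 9.26 and 5.92 in saline, a cocaine mean of 1.497 that came from 1 library. The next, chr6:111207061-111207280, had the same 3 cocaine values, and chr8:58687721-58687940 read 1.92, 2.47 and 0. Just over it, chr3:105457341-105457620, chr12:27982441-27982700 and chr5:81471461-81471660 all read 0.96, 0 and 3.59, a mean of 1.52. Whether a region fell under 1.5 thus turned on less than 1 read.

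Class membership followed the saline level closely. Near-complete losses were 956 of the 978 regions with a saline mean from 5 to 7 (97.8%), 536 of 1312 from 7 to 9 (40.9%), 21 of 846 from 9 to 11 (2.48%), 1 of 848 from 11 to 15 (0.118%) and 0 of 444 from 15 to 40. The median share of saline left in cocaine went up over the same bins from 15.1% through 20.3%, 26.8% and 31.9% to 40.1%. A region had to pass the caller, so a weak saline region could only be listed with a low cocaine level. Losses inside H3K27ac regions followed the same course, with 54 of 54 (100%) near-complete in the lowest bin and 38.8% of 103 in the next. Over all levels 95 of those 432 were near-complete (22.0%), and their saline mean had a higher median (10.3). Gains gave the mirror image, as 1966 of the 6220 outside H3K27ac (31.6%) had a saline mean under 1.5.

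**Figure D3:**
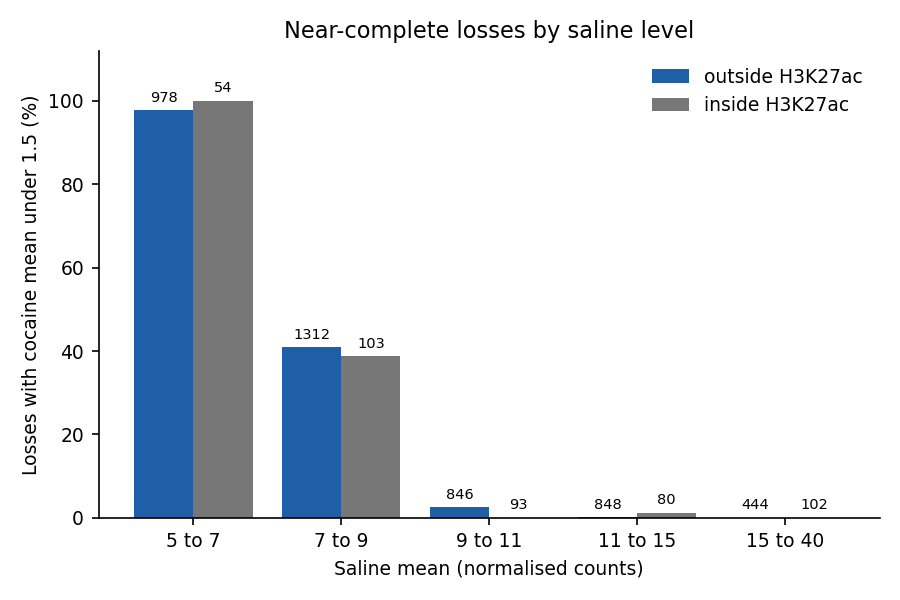
Share of 5hmC losses that are near-complete (cocaine mean under 1.5 normalised counts, in %) by saline mean, outside (blue) and inside (grey) listed H3K27ac regions; the number of losses in each bin stands above its bar. Outside H3K27ac the share goes from 97.8% in the lowest bin to 0 in the highest, and the bars inside H3K27ac stand close to those outside.

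Saline libraries were even over these regions, and cocaine libraries less so. A caller that keeps regions with saline above cocaine favours a low saline spread. The evenness therefore describes the listed regions and is no trait of the libraries. The coefficient of variation over 3 libraries had a median of 19.3% in saline and 61.2% in cocaine, where a single read is a large part of the mean. One saline library carried more than 50% of the summed saline signal at 46 regions (1.04%). Cocaine libraries summed to 11858, 12006 and 12104 normalised counts over all losses, and saline libraries to 44838, 43994 and 43153. The totals within a group differed by far less than the groups did, which the choice of regions built in. Across the 4428 regions, Pearson's r was 0.567 to 0.628 between cocaine libraries, 0.723 to 0.731 between saline libraries, and 0.706 to 0.781 between a cocaine and a saline library. These correlations are descriptions across regions that share libraries and a range of region lengths. Listing by the caller also links cocaine to saline levels. The highest cocaine mean was 1.55 at saline means from 5 to 7 and 17.7 at those from 15 to 40. Cocaine libraries held few reads as well, so the values of r do not rank how alike the libraries are.

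A background library stands behind the ratio columns of the deposited 5hmC table, and the labels do not say which library it is. Its level was recovered by dividing a group mean by the deposited ratio, and came out in whole reads within 0.1 read in 99.2% of the values checked. It held a median of 2 reads in these regions and at most 9, with a mean of 2.07 reads, beside 2.04 in gains outside H3K27ac. It was at 0 in 652 losses (14.7%), beside 15.03% of all listed regions. The mean was 1.94 reads in near-complete and 2.14 in partial losses. It exceeded both group means at 96 losses (2.17%), of which 84 were near-complete and 12 partial, and at 120 of the 6220 gains. The highest was at chr7:48001141-48001420, with 9 background reads (12.8 normalised counts), where cocaine read 1.92, 1.23 and 1.80 and saline 6.28, 7.21 and 8.88. At chr10:63759901-63760100, the first of the regions without a cocaine read, the background held 6 reads (8.57 normalised counts) and lay above the saline mean of 7.46. At chr5:147090821-147091160 it held 8 reads (11.6), under the saline mean of 14.4.

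Losses were scattered, and most stood alone. They were short, with 200 bp, the width of 1 caller window, in 68.2% of near-complete and 49.9% of partial losses and a maximum of 440 bp. Distances here count only losses and gains outside H3K27ac. The nearest other loss was a median of 106911 bp away, and 343 losses (7.75%) had one within 10 kb. The nearest gain was a median of 74041 bp away, and 455 losses (10.3%) had one within 10 kb. Gains are the larger group, with 6220 against 4428 losses. Seen from gains, the nearest other gain was a median of 80161 bp away, with 10.2% within 10 kb. Their nearest loss was a median of 108981 bp away, with 7.49% within 10 kb. Joining losses at gaps of at most 10 kb gave 4085 single regions, 164 pairs and 5 runs of 3. Losses made up between 38.6% (chromosome 6) and 44.5% (chromosome 7) of the listed regions outside H3K27ac, and near-complete losses between 25.8% (chromosome 12) and 39.3% (chromosome 10) of the losses.

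The runs of 3 mixed both classes or held partial losses alone. On chr15:84647921-84658520 a partial loss, with 3.84, 1.23 and 6.29 in cocaine and 16.14, 10.29 and 11.84 in saline, was followed by the region at chr15:84656881 without any cocaine read. The last of the run, chr15:84658321-84658520, read 0, 1.23 and 1.80 in cocaine and 5.38, 5.15 and 8.88 in saline. Saline means along the run were 12.8, 5.75 and 6.47, and cocaine was below saline at each region. On chr8:119137981-119152860 a partial loss stood between 2 near-complete ones, with saline means of 7.35 to 10.9 and cocaine means of 1.22 to 2.77. The run on chr3:101590201-101599760 held 1 near-complete loss and 2 partial ones. The runs on chr7:86054281-86067120 and chr9:43416081-43428140 were all partial, with cocaine means up to 3.80 and 5.53. No gain outside H3K27ac lay inside any of the 5 runs, and gains that overlap H3K27ac were not counted.

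Most losses lay more than 10 kb from a listed H3K27ac region, as did most gains outside H3K27ac. The nearest listed H3K27ac region was a median of 17831 bp away, 37.4% of losses had one within 10 kb, 7.68% within 1 kb and 85.2% within 100 kb. Near-complete losses lay farther out than partial ones, with a median of 21791 bp against 15741 bp and 32.1% against 40.1% within 10 kb. Gains outside H3K27ac fell between, at 18211 bp and 36.3%. The share within 10 kb also went with the saline level, from 30.8% of losses with a saline mean of 5 to 7 to 50.7% of those from 15 to 40. At saline means from 7 to 9, where both classes are well filled, 34.0% of 536 near-complete and 38.3% of 776 partial losses lay within 10 kb, with medians of 19181 bp and 19281 bp. At this saline level the medians nearly met, and the shares still differed, though by less than over all levels. In the bins beside it 1 class held few regions. Within 10 kb lay 31.1% of 956 near-complete and 18.2% of 22 partial losses at saline means from 5 to 7. From 9 to 11 it was 33.3% of 21 and 34.9% of 825. The difference between the classes has no test here, since the regions are not replicates.

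**Figure D4:**
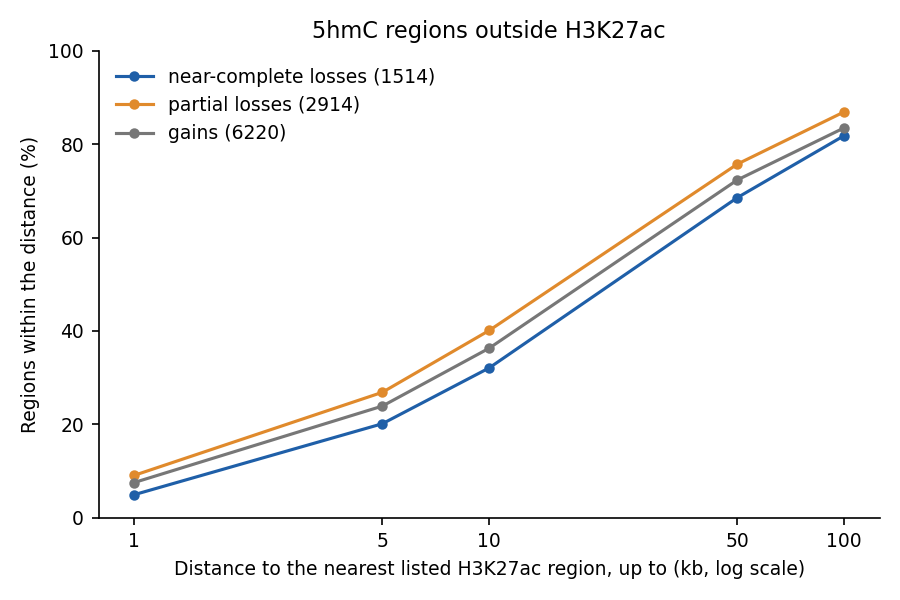
Share of 5hmC regions outside H3K27ac (in %) whose nearest listed H3K27ac region lies within a given distance (kb, log scale), for near-complete losses, partial losses and gains. Within 10 kb the shares are 32.1%, 40.1% and 36.3%, and the order is the same at each distance drawn.

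H3K27ac itself was not used in choosing the losses beyond its positions, so calls near them could be compared with those over all listed regions. The listed H3K27ac regions were themselves kept by a caller of differences in the same libraries. Adjusted p-values of single H3K27ac regions are therefore no independent evidence of a change. There were 3552 H3K27ac regions that lay within 10 kb of a loss without overlapping one. By limma with Benjamini-Hochberg adjustment over all 49712 H3K27ac regions (3 against 3 libraries, threshold 0.05), 431 of them changed (12.1%), beside 13% of all H3K27ac regions. Of these, 122 were higher after cocaine (3.43%, beside 3.42% of all) and 309 lower (8.70%, beside 9.62% of all). All these shares lie near those of the whole table. The median log2 change was -0.02 near losses and -0.02 over all regions. Neighbours of near-complete losses gave 125 of 1059 (11.8%), those of partial losses 317 of 2554 (12.4%), and those of gains outside H3K27ac 607 of 4674 (12.99%). H3K27ac neighbours of losses had a median level of 486 normalised counts, beside 514 over all regions, and in regions of low, middle and high H3K27ac level the share called was again near that of all regions (11.5% and 12.2%, 8.75% and 9.99%, 17.0% and 16.9%). The calls rest on a variance that limma shares across regions. When limma used only the variance of the region itself, 0 of the 3552 passed, while 593 had an unadjusted p under 0.05 against 922 with the shared variance, and 2 of 49712 passed over the whole table.

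The share of H3K27ac regions called was between 11.3% and 13.7% at every distance from a loss. H3K27ac regions under 1 kb from a loss were called in 43 of 379 cases (11.3%), those at 1 to 5 kb in 13.3%, those at 5 to 10 kb in 11.3% and those over 100 kb away in 13.7%. The share of all listed H3K27ac signal that fell in regions within 10 kb of a loss was 6.82%, 6.81% and 6.81% in the cocaine libraries and 6.80%, 6.82% and 6.80% in the saline libraries. The groups overlapped, because saline library 2 was the highest of all 6. The cocaine mean was 6.82% ± 0.0021 percentage points (SD, n = 3) and the saline mean 6.81% ± 0.0126. The difference of 0.0097 percentage points was within the spread of the saline libraries (exact permutation test, two-sided, p = 0.4, adjusted over 3 tests 0.4, smallest p allowed 0.1). For near-complete losses the share was 2.09% in both groups and for partial losses 4.84% in both, each with an exact permutation p of 0.4. Within 50 kb of a loss the difference was 0.0566 percentage points, higher in cocaine, with the groups apart (exact permutation p = 0.1, the smallest allowed).

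**Figure D5:**
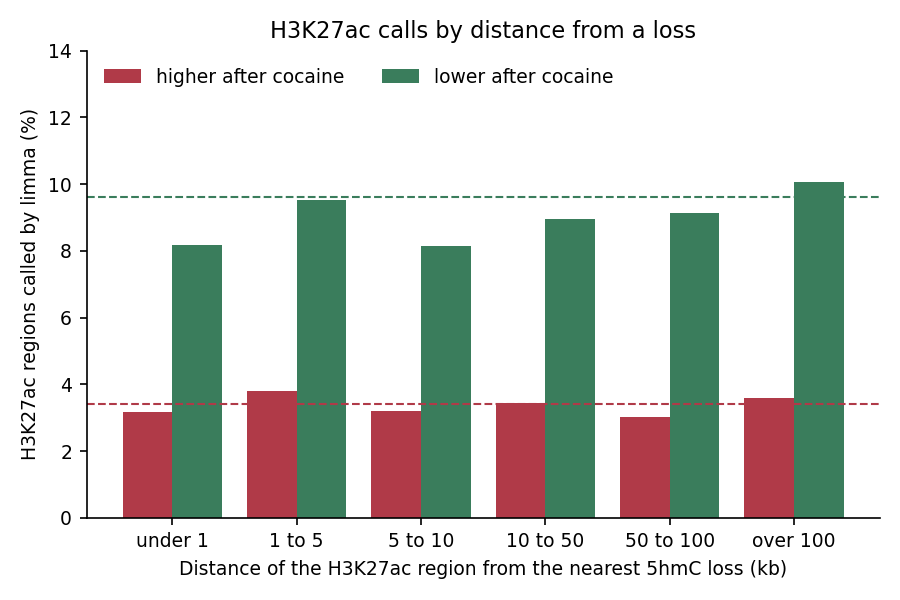
Share of H3K27ac regions (in %) that limma called higher (red) or lower (green) after cocaine, by distance from the nearest 5hmC loss outside H3K27ac (kb). Dashed lines are the shares over all 49712 H3K27ac regions, 3.42% higher and 9.62% lower; over the distance bins the bars run from 3.01% to 3.81% and from 8.14% to 10.1%.

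Seen from the losses, 1655 had an H3K27ac region within 10 kb, and these nearest regions were 1608 distinct ones. The nearest region was higher in 79 cases, lower in 197 and not called in 1379. That is 4.77% higher and 11.9% lower, beside 3.42% and 9.62% of all H3K27ac regions. Gains outside H3K27ac gave much the same, with the nearest of 2259 higher in 4.69% and lower in 12.7%. A split by whether an H3K27ac region stands alone was added after these shares were seen. It covers all 3552 H3K27ac regions near losses, not the nearest ones alone. Why the shares at the nearest regions are above those of the whole table was not tested. Over the whole table, 25.4% of the 10544 H3K27ac regions with no other listed one within 10 kb were called, against 9.72% of the other 39168. Within 10 kb of a loss the shares were 22.2% of 645 and 9.91% of 2907, so in neither kind was the share called far above that of the whole table. Among the closest with higher H3K27ac, chr10:69968401-69968600 was a near-complete loss (cocaine 0, 0 and 0.90, saline 5.38, 5.15 and 4.93) that began on the base after an H3K27ac region. That H3K27ac region read 248, 249 and 259 in cocaine and 213, 234 and 221 in saline (log2 change 0.18 ± 0.06 SE, limma adjusted p = 0.0268). Its groups did not overlap, but its call was lost without any 1 library other than saline 2 (limma adjusted p up to 0.132) and with cyclic loess scaling (0.0987). Beside the partial loss at chr15:77882941-77883280, an H3K27ac region 1641 bp away read 529, 522 and 526 in cocaine and 508, 454 and 461 in saline (log2 change 0.15 ± 0.05 SE, limma adjusted p = 0.0136). It lost its call without cocaine 1, saline 2 or saline 3, with adjusted p from 0.0680 to 0.0980.

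Lower H3K27ac was found beside losses of both classes. At chr7:28277001-28277220 a partial loss (cocaine 5.76, 3.70 and 5.39, saline 13.45, 15.44 and 12.83) began on the base after an H3K27ac region with 845, 845 and 861 in cocaine and 921, 928 and 969 in saline. The log2 change of that region was -0.14 ± 0.04 SE (limma adjusted p = 0.00627), and it kept its call without each library. At chr4:62883661-62883860 a near-complete loss (cocaine 0.96, 1.23 and 1.80, saline 7.17, 5.15 and 10.86) lay 61 bp from an H3K27ac region with 227, 220 and 217 in cocaine and 247, 267 and 246 in saline. Its log2 change was -0.19 ± 0.06 SE (limma adjusted p = 0.0181), and it lost its call without cocaine 2, cocaine 3 or saline 2.

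The run on chromosome 15 had the largest H3K27ac difference among the 15 called neighbours, within 10 kb, of the losses named by rule. Between its first and second loss, 141 bp from the first, chr15:84648301-84649400 read 184, 196 and 192 in cocaine and 241, 247 and 249 in saline. The log2 change was -0.36 ± 0.06 SE (limma adjusted p = 5.34e-07), and it stayed between -0.34 and -0.38 without any 1 library, each time with a call. With its own variance alone the adjusted p was 0.281. H3K27ac was thus lower in this 1 region of the run, and 5hmC at 3 short regions, 1 on its left and 2 on its right. The other run with an H3K27ac region inside, on chromosome 8, had 276 in cocaine and 248 in saline (log2 change 0.15 ± 0.06 SE, limma adjusted p = 0.0535), which did not pass.

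The authors also deposited lists of 5hmC enhancers named as specific to saline or to cocaine, of 10555 and 10575 intervals. No source used here says how these lists were made. They may come from the same libraries, so overlaps are a description. The saline-specific list held 94 of the 4428 losses (2.12%), beside 1.12% of all listed 5hmC regions and 0.579% of gains outside H3K27ac. Inside H3K27ac, regions that count among all listed ones, it held 0 of 432 losses and 1 of 618 gains. It held 26 near-complete (1.72%) and 68 partial losses (2.33%). The cocaine-specific list held 22 losses (0.497%), beside 1.55% of all listed 5hmC regions and 2.48% of gains outside H3K27ac, and 2 losses were in both lists. Inside H3K27ac the cocaine-specific list held 0 of 432 losses and 3 of 618 gains. Seen from the lists, 0.881% of the saline-specific and 0.208% of the cocaine-specific intervals overlapped a loss.

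The losses within these lists with the most saline signal were partial. In the saline-specific list, chr1:182157301-182157600 read 18.25, 16.05 and 11.68 in cocaine and 30.48, 32.94 and 24.67 in saline, with groups apart. It began on the base after an H3K27ac region with 496 ± 14.04 in cocaine and 480 ± 17.5 in saline (SD, n = 3), values that overlap in their spread. At chr13:60162781-60163140 the cocaine values were 9.61, 9.88 and 6.29 and the saline values 19.72, 23.68 and 19.74, and the nearest H3K27ac region was 64061 bp away. The cocaine-specific list held losses too, against its name. At chr2:173175121-173175360 the cocaine values were 8.65, 12.35 and 17.97 and the saline values 32.27, 23.68 and 23.69. At chr3:90301841-90302160 they were 5.76, 3.70 and 8.99 against 19.72, 18.53 and 14.80, and the H3K27ac region 6241 bp away was lower as well, with 424 ± 14.99 in cocaine and 495 ± 5.54 in saline (SD, n = 3; log2 change -0.22 ± 0.05 SE, limma adjusted p = 8.10e-05). The cocaine-specific list held 1 near-complete loss and 21 partial ones.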

How the data were processed

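Captured 5hmC and H3K27ac were compared over 3 cocaine and 3 saline libraries each. The submitters' processing notes name Bowtie 0.12.9 and the mm9 build. H3K27ac regions came from diffReps 1.54 (windows of 1000 bp moved by 100 bp, window p at most 0.0001), per the file headers; the 5hmC caller, with windows of 200 bp, is named in no source used here. The authors deposited normalised counts per library, their group means as a signal, a ratio of each mean to a background library, a log2 fold change of the means, and an adjusted p-value; the largest was 0.149 for 5hmC. Each listed region has a small deposited window p (at most 9.99e-05 for H3K27ac), yet most H3K27ac regions differ little between groups. Per-library values were scaled by the authors and stand joined in 1 cell, so no count model was run.

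Starts and ends were taken as deposited, and overlap meant 1 shared bp. H3K27ac was tested with limma 3.58.1 (R 4.3.3). It was fitted to log2(value + 1) with trend and robust moderation, which understates the change of low regions. The limma step was tested on simulated data. Python 3.11.15, numpy 2.4.6, pandas 2.3.3 and matplotlib 3.10.9 did the rest. Replicate numbers follow the file headers for H3K27ac and the order in the table for 5hmC. Pairing by number was not possible, since the labels give no shared number.

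Regions named are the 10 near-complete losses with most saline signal, the 10 partial losses with the largest difference, 3 on each side of the threshold, those with a deposited adjusted p under 0.1, the 5 nearest to called H3K27ac in each direction, the 5 with most saline signal in each enhancer list, the 5 largest runs, the 5 highest without cocaine reads and the 5 with the highest background; a few of each are printed. Members and lists were chosen with earlier results of these data known. Gene lists were not used, since no annotation of this build was at hand. Alternatives were other thresholds, distances, scalings, variances and leaving out each library.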

Additional observations from a re-analysis of the deposited data

Results flagged for a closer look

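The background library behind the deposited ratios enters none of the comparisons, and 96 losses had more signal in it than the mean of either treatment group (84 near-complete and 12 partial). The 5 losses with the highest background held 8 or 9 reads there, and 1 of them, chr2:102542541-102542760, was near-complete, with 0.96, 0 and 0.90 in cocaine, 6.28, 6.18 and 6.91 in saline and 11.5 in the background. Which library this is was not settled, and its part in the losses was not tested. Groups of 3 libraries are too small for a search for single outlying libraries.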

How the results depend on the processing

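A saline mean of at least 10 left 1654 losses, while the other definitions of a loss, leaving out each 5hmC library included, kept 4088 to 4473. A cocaine mean under 1 left 607 near-complete losses and one under 10% of saline left 139. For H3K27ac regions near losses, counts called (all, higher, lower) were 232, 66 and 166 within 5 kb and 1813, 506 and 1307 within 50 kb. They were 0, 0 and 0 of 3552 with each region's own variance in limma, where 593 had an unadjusted p under 0.05. Cyclic loess scaling gave 186 higher and moved the share of higher among called neighbours from 28.3% to 37.1%, and among all called regions from 26.2% to 36.7%. Leaving out 1 library gave 172 to 435 called, 35 to 93 higher and 135 to 342 lower. Without cocaine 1, cocaine 2 and saline 3 the totals were 186, 172 and 246, with 35, 37 and 80 higher and 151, 135 and 166 lower, and the shares over all H3K27ac regions dropped too, from 13% to 6.20%, 6.15% and 7.43%. The filter on low H3K27ac values removed no region. All 15 named H3K27ac neighbours kept their direction; 15 lost the call with their own variance, 3 with loess scaling and 5 to 9 without 1 library. The share of H3K27ac signal near losses differed by 0.0060 to 0.01699 percentage points without 1 library, with exact permutation p from 0.1 to 0.7, and by 0.0566 within 50 kb (p = 0.1). Losses in the enhancer lists numbered 177 (saline-specific) and 80 (cocaine-specific) within 1 kb, and 11 of the cocaine-specific ones were covered over 50% of their length. The background was below the saline mean at 4332 losses, and 1305 losses had another within 50 kb and 72 within 2 kb. A count test with edgeR, planned only if raw counts were at hand, was not run, because the per-library values were deposited after scaling. DESeq2 was not run for the same reason. No paired analysis was possible because the labels give libraries no replicate number shared between groups. Depth limits the losses: near-complete ones rest on a median of 3 against 21 reads, and the threshold of 1.5 is under 2 reads in a library.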
